A study of Mus musculus with 4 samples.

Results

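Cytosolic ribosomal proteins are the protein components of the ribosomes that translate nuclear-encoded mRNAs. They were taken as all genes of the deposited table whose symbol names a large subunit protein (Rpl or Rplp with a number) or a small subunit protein (Rps with a number, or Rpsa), and the Rps6k kinases and symbols marked as pseudogenes were left out. This gave 85 of 11883 genes, 51 for the large and 34 for the small subunit. The rule uses symbols only. RNA-seq had been done on lung T helper 2 (Th2) cells, live CD4+ T1/ST2+ cells sorted from C57BL/6 mice after chronic exposure to papain, a protease from papaya used as an inhaled allergen in mice. The 4 samples are 2 of the genotype Gata3(fl/fl), called control here, and 2 of the genotype Klrg1Cre Gata3(fl/fl), called Klrg1Cre. In both genotypes the gene for the transcription factor Gata3 carries sites for Cre recombinase, and in the second a Cre named for the lymphocyte receptor gene Klrg1 is also present. All animals had papain, no untreated group was analysed, and no group had the Cre without floxed Gata3, so effects of the Cre allele and of Gata3 deletion cannot be told apart. The sources used here give no ages and do not say whether mice were pooled or whether the 2 samples of a group came from separate mice. Any spread between samples that the p-values rest on may therefore be technical.

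Each ribosome holds 1 copy of nearly every one of these proteins, and the small subunit decodes the mRNA while the large subunit joins the amino acids. Proteins P0, P1 and P2, encoded by Rplp0, Rplp1 and Rplp2, form the stalk of the large subunit that recruits translation factors. Their mRNAs belong to the most abundant of a cell and typically start with a run of pyrimidines (C or T), the terminal oligopyrimidine or TOP tract, through which mTORC1 signalling and the RNA-binding protein Larp1 control their translation. Activated T cells enlarge their ribosome pool before they divide. Such control acts on translation, and RNA-seq of total RNA does not measure it.

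The annotated start sites of the members were searched for pyrimidine runs. RefSeq promoters (build GRCm38.p6) were matched by symbol for 64 of the 85 genes, 39 of the large and 25 of the small subunit. Below are 8 windows of 15 bases before and the first 15 bases after the annotated start, for genes whose values are described further on. The first 6 were chosen to show starts with a run, and Rpl23 and Rps3 to show starts without one. Capitals mark the longest pyrimidine run found within 25 bases of the start, where it has at least 8 bases.
Rpl14 (chr9:120571502-120571531, + strand): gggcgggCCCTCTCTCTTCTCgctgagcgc
Rpl28 (chr7:4792950-4792979, + strand): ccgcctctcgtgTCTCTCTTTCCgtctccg
Rps6 (chr4:86857353-86857382, - strand): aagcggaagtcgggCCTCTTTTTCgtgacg
Rps18 (chr17:33955651-33955680, - strand): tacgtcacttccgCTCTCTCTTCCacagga
Rps24 (chr14:24490663-24490692, + strand): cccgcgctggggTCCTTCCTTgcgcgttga
Rps27 (chr3:90213634-90213663, - strand): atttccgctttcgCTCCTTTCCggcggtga
Rpl23 (chr11:97782425-97782454, - strand): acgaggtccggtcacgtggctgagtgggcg
Rps3 (chr7:99483695-99483724, - strand): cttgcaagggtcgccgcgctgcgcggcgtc
A run of at least 8 pyrimidines lay within 25 bases of the annotated start in 30 of the 64 member promoters (46.9%), against 18.3% of the promoters of 5003 other genes whose mean reached 5 CPM and 19.4% of all 27025 promoters. The other 34 member promoters had no run of that length there. The longest run, 21 bases, was that of Rpl7a. An annotated start can lie some bases away from the true one, so a window without a run does not show that the mRNA lacks the tract. Nor does a counted run show that the mRNA has the tract. Some runs, such as those of Rpl4 and Rps15a, lie wholly before the annotated start.

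Promoters were also searched for motifs over 300 bases, from 250 before to 50 after the start. The letters CTTCCG on either strand, the core recognised by ETS transcription factors, were in 43 of the 64 member promoters (67.2%), 23 of 39 for the large and 20 of 25 for the small subunit. They were in 1902 of the 5003 other expressed genes and in 17.2% of all promoters. The 100 bases before the start of Rps6 and Rps18 each hold 3 such matches, in capitals. Rps21 also had 3, and no member had more.
Rps6 (chr4:86857368-86857467, - strand): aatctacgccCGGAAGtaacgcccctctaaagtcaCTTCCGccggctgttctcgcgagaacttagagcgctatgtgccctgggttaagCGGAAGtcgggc
Rps18 (chr17:33955666-33955765, - strand): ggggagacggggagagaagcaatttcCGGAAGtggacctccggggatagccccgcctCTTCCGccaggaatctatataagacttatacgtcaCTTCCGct
The other motifs, also searched on both strands, were rarer or less different. The YY1 motif GCCATNTT was in 18.8% of member promoters, 10.8% of other expressed genes and 6.23% of all promoters. For TATAAA the shares were 10.9%, 6.64% and 14.2%, for the GC box GGGCGG 60.9%, 67.8% and 35.9%, and for the E-box CACGTG 7.81%, 11.3% and 7.24%. These matches describe letters, not bound factors, and a motif may overlap another.

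The deposited values are group means in CPM, reads scaled to the total of a library. Their headers read WT and ILC2 deficient, and WT was taken as control, a link that the labels do not state. For many genes each mean could be written in 1 way as whole reads of 2 libraries, which gave totals of 26019065 and 14564426 reads for the Klrg1Cre libraries, and of 33379572 and 31961572 reads for those of control. Which library is sample 1 or 2 is unknown, so they are called the larger and the smaller library of their genotype. Rn45s, the ribosomal RNA precursor, took 67.1% of Klrg1Cre and 51.4% of control reads (adjusted p = 0.954) in the authors' deposited table. Gata3, the floxed gene, had deposited means over the whole gene of 293.9 (Klrg1Cre) and 221.4 CPM (control) at an adjusted p of 0.551 in the authors' model, so it was not lower in the sorted cells labelled Klrg1Cre. Klrg1 had 4.19 against 48.4 CPM (adjusted p = 0.0701 in the authors' deposited table). Of 8 T cell and Th2 markers, 7 were listed, with summed deposited means of 1074 CPM in Klrg1Cre and 1008 in control. Gata3 is part of this sum, so the sum does not show more T cell RNA in Klrg1Cre. Of the other listed markers, Cd3e, Cd3g and Cd4 had higher deposited means in Klrg1Cre, and Cd3d, Lck and Il1rl1 had lower ones. All 5 macrophage and monocyte markers were listed too, and summed to 1537 against 2315 CPM in the deposited means. Chil3 made up most of this, at 1124 against 1932 CPM in the deposited means, and the other 4 summed to 413.2 against 383.2 CPM, with Lyz2 at 395.9 against 364.0 CPM. All 3 B cell markers were each listed at or below 0.510 CPM, and Ms4a1 was listed at 0 in Klrg1Cre. Since the RNA is from bulk cells, an altered share of a cell type and altered RNA per cell cannot be told apart, and the part of macrophage RNA in the ribosomal protein values was not tested.

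Ribosomal protein mRNAs stood at nearly equal levels in both genotypes. By the p-values of the authors' deposited table, 0 of the 51 large subunit genes and 0 of the 34 small subunit genes passed an adjusted p of 0.05, where 0.0589% of all genes did. Adjusted p-values of the members (Benjamini-Hochberg over all 11883 genes, from the authors' model) ranged from 0.698 to 0.995. At an unadjusted p below 0.05 there was 1 member in the authors' deposited table, Rpl28, against 7.09% of all genes. Rpl28 was higher, as were 3.72% of all genes at that p, and 0 members were lower, where 3.37% of all genes were. By limma on the 44 members with separable libraries, 0 passed an adjusted p of 0.05 (0.165% of 4242 genes did) and 0 an unadjusted one (7.87% did). The deposited means differed by less than 25% (as a fold) for 83 of the 85 genes (97.6%). The same held for 81.4% of the 5353 other genes within the range of levels of the canonical members. Levels were not matched within that range, with a median of 50.9 CPM for the members and 14.9 CPM for these other genes. Higher deposited means in Klrg1Cre were listed for 29 large and 19 small subunit genes, and lower ones for 22 and 15. The median log2 ratio of Klrg1Cre to control was 0.03 for the large and 0.02 for the small subunit, and 0.0053 over all genes. Over the split members it was 0.04 and 0.0080, and its sign turned with single libraries. It was -0.04 and -0.0563 without the smaller Klrg1Cre library and 0.11 and 0.10 without the larger one. Without the larger control library it was -0.0065 and -0.0075, and without the smaller one 0.11 and 0.06. With 2 libraries per genotype and p-values from a model that the sources do not name, this does not show that the levels are equal.

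Summed over the members, the deposited means came to 6503 CPM for Klrg1Cre and to 6250 CPM for control. Among listed reads other than Rn45s this was 3.58% and 3.50%. The large subunit summed to 4177 and 3963 CPM, a ratio of 1.05, and the small subunit to 2325 and 2287 CPM, a ratio of 1.02. Without Rplp0, the most abundant member, the ratio of the large subunit was 1.04.

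**Figure D1:**
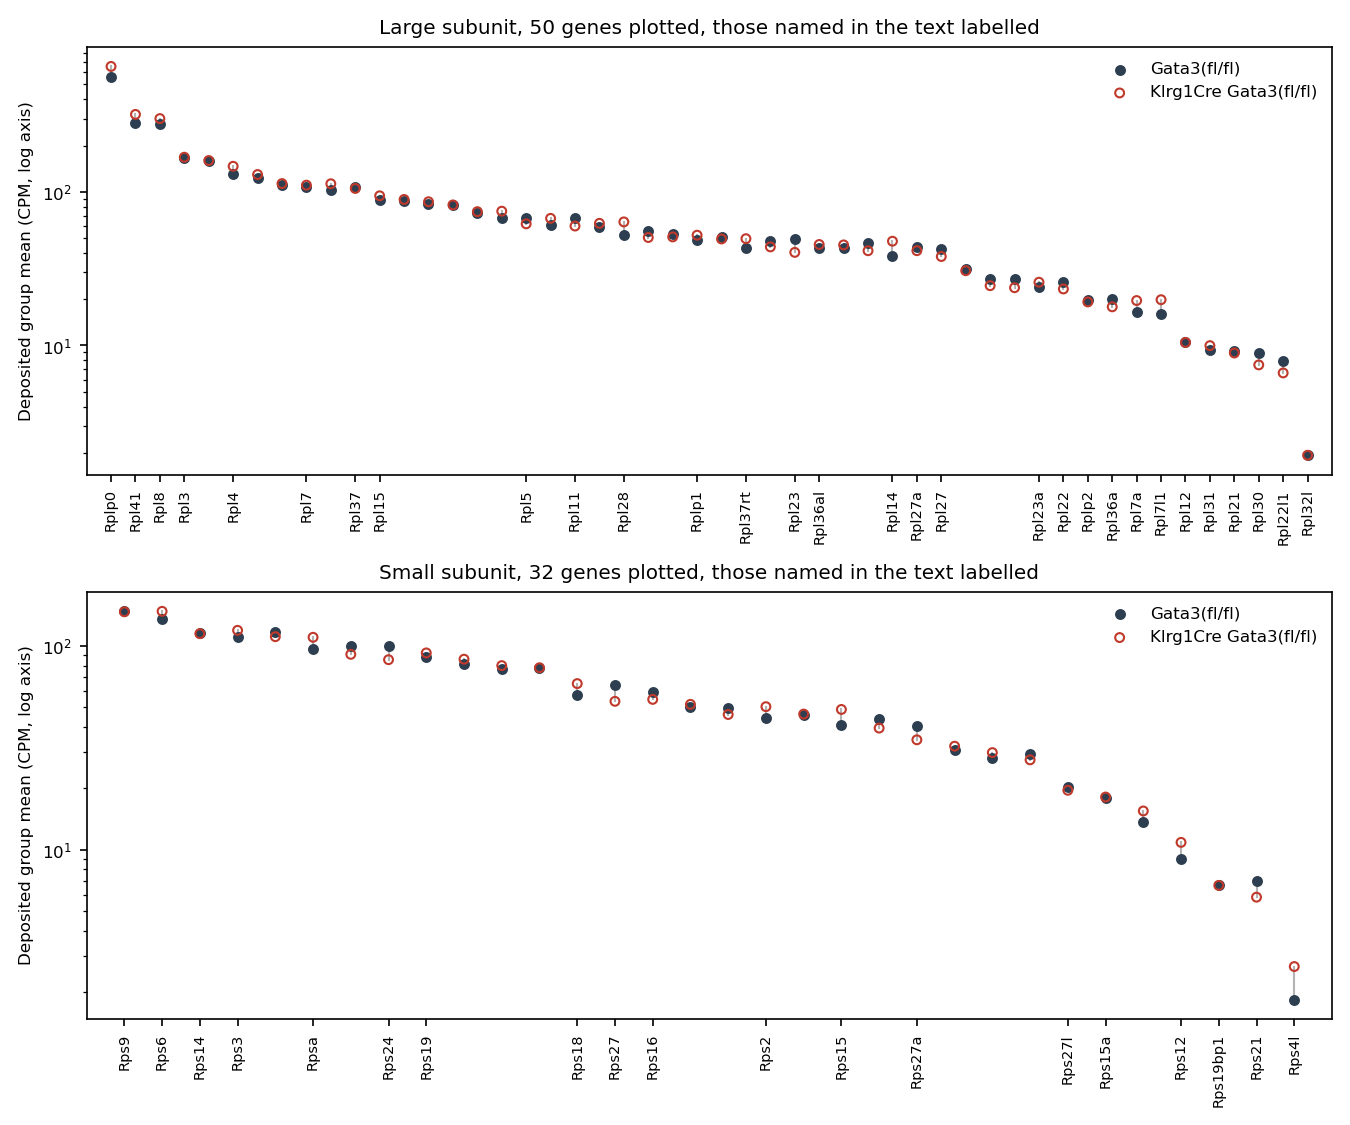
Deposited group mean in CPM (log axis) of each ribosomal protein gene reported here, ordered by its mean over both genotypes, with filled circles for Gata3(fl/fl) and open circles for Klrg1Cre Gata3(fl/fl). The circles of a gene lie close together along the whole range, from Rplp0 at 655.5 and 561.3 CPM to Rpl32l at 1.93 and 1.94 CPM.

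The 5 most abundant large subunit genes, Rplp0, Rpl41, Rpl8 and Rpl3 among them, together made up 38.2% of the subunit's summed deposited means. Rplp0, the scaffold of the stalk, stood at 655.5 CPM in Klrg1Cre and at 561.3 CPM in control in the deposited means, 1.17-fold higher (adjusted p = 0.764 in the authors' model). Rpl41, which encodes the smallest ribosomal protein, had 288.9 and 349.6 CPM in the larger and smaller Klrg1Cre library and 266.5 and 298.6 CPM in the control libraries. Its groups overlapped, since the larger Klrg1Cre library lay between both control libraries. Rpl8, a protein near the catalytic centre, had 282.9 and 317.0 CPM for Klrg1Cre against 282.2 and 269.2 CPM for control. The Klrg1Cre libraries of Rpl8 were both higher, but the larger one by under 1 CPM (adjusted p = 0.856 in the authors' deposited table). Rpl3, another protein near the catalytic centre, had 157.6 and 178.5 CPM for Klrg1Cre against 161.6 and 172.1 CPM for control. Its groups overlapped, and in each genotype the smaller library held more.

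The other stalk genes were lower in level. Rplp1 had 43.2 and 61.2 CPM in the Klrg1Cre libraries and 43.5 and 54.4 CPM in the control libraries, so its libraries differed more within a genotype than between genotypes. For Rplp2 the deposited means were 19.2 and 19.7 CPM (adjusted p = 0.966 in the authors' deposited table). Rpl5 and Rpl11, which bind the 5S RNA and can restrain the p53 inhibitor Mdm2 when ribosome assembly fails, both had lower deposited means in Klrg1Cre, 61.9 against 67.2 CPM for Rpl5 and 59.9 against 67.2 CPM for Rpl11. The libraries of Rpl11 held 55.7 and 64.1 CPM in Klrg1Cre against 67.1 and 67.3 CPM in control, which did not overlap (adjusted p = 0.814 in the authors' deposited table).

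Among the large subunit genes, Rpl28 had the smallest p. Its libraries held 62.9 and 64.6 CPM in Klrg1Cre, from 1636 and 941 reads, and 50.2 and 54.1 CPM in control, from 1674 and 1730 reads. Both Klrg1Cre libraries were thus above both control libraries, by 1.22-fold in the deposited means (p = 0.0484 unadjusted and adjusted p = 0.698, the authors' model). Rpl23 went the other way, with 42.4 and 38.3 CPM in Klrg1Cre against 46.2 and 51.8 CPM in control. The deposited fold of Rpl23 was 1.21-fold lower (adjusted p = 0.729, the authors' model). Rpl14 was 1.25-fold higher at deposited means of 47.7 against 38.1 CPM, with the same adjusted p of 0.729 in the authors' model. Its row is uncertain, because Rpl14-ps1, a pseudogene row of the table left out by the rule, had deposited means of 45.0 and 40.2 CPM. Rpl30 had a deposited mean of 7.47 against 8.94 CPM, 1.20-fold lower (adjusted p = 0.869 in the authors' model).

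The 5 most abundant small subunit genes, with Rps9, Rps6, Rps14 and Rps3 among them, made up 34.6% of the subunit's summed deposited means. Rps9 had 129.8 and 164.0 CPM in Klrg1Cre, which enclosed the 146.0 and 150.2 CPM of control. Rps6, the protein phosphorylated by the S6 kinases, had 137.6 and 157.6 CPM for Klrg1Cre against 134.8 and 134.9 CPM for control. The groups of Rps6 did not overlap (1.09-fold, adjusted p = 0.844 in the authors' deposited table). Rps14 had 110.1 and 119.3 against 110.4 and 121.6 CPM, and overlapped. Rps3, which lines the mRNA entry channel, had 112.3 and 125.9 against 108.0 and 112.2 CPM, with the larger Klrg1Cre library just above the smaller control library. Rpsa, also known as the laminin receptor, had 105.1 and 115.1 CPM against 89.1 and 104.2 CPM, again without overlap (adjusted p = 0.791 in the authors' deposited table).

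The smallest p-values of the small subunit belonged to Rps27, Rps24, Rps4l, Rps15 and Rps27a. Rps27, a zinc finger protein, had deposited means of 53.4 against 64.3 CPM, 1.20-fold lower (adjusted p = 0.729 in the authors' model). Rps24 was 1.16-fold lower at deposited means of 85.5 against 99.2 CPM, and Rps27a, which is made as a fusion with ubiquitin, was 1.17-fold lower at 34.6 against 40.5 CPM. Rps15 was 1.19-fold higher in the deposited means, at 48.7 against 41 CPM. None of these passed the adjusted p, which lay between 0.729 and 0.791 for these 5 genes in the authors' deposited table. Rps12 was 1.21-fold higher, Rps18 1.14-fold higher and Rps21 1.20-fold lower in the deposited means. The libraries of Rps12 held 12.1 and 9.61 CPM (Klrg1Cre) and 8.36 and 9.64 CPM (control), and overlapped.

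Ribosomal proteins whose symbols fall outside the rule were looked at too. Fau, a ubiquitin-like protein fused to a small subunit protein, had deposited means of 245.7 and 242.5 CPM. Rack1, a scaffold protein on the small subunit, had 54.7 and 64.4 CPM in the Klrg1Cre libraries and 50.4 and 55.6 CPM in the control libraries, and overlapped. With Fau, all 32 small subunit proteins of the canonical mouse ribosome had a row in the table.

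The remaining 8 symbols that the rule admitted were 7 paralogs and Rps19bp1, a protein that binds Rps19. Rpl7l1, a paralog with a role in ribosome assembly, had 18.2 and 21.5 CPM for Klrg1Cre against 15.2 and 16.9 CPM for control, a 1.24-fold difference without overlap (adjusted p = 0.753 in the authors' deposited table), while Rpl7 itself overlapped at deposited means of 110.6 and 107.3 CPM. Rps4l had the largest ratio of all members, 1.46-fold at deposited means of 2.67 against 1.83 CPM. Between 42 and 65 reads stood behind each library of Rps4l (adjusted p = 0.771 in the authors' deposited table). Rpl22l1 had deposited means of 6.62 against 7.88 CPM beside 23.3 against 26.1 CPM for Rpl22, and Rps27l, a p53 target, 19.6 against 20.4 CPM beside Rps27. Rpl36al had deposited means of 45.4 and 43.2 CPM, above those of Rpl36a at 17.8 and 20 CPM. For Rpl37rt they were 49.6 and 43.1 CPM, and for Rpl32l 1.93 and 1.94 CPM. Rps19bp1 had 4.92 and 8.45 CPM (Klrg1Cre) and 8.0 and 5.38 CPM (control). As a fold, this was the widest spread between libraries of all members that could be split. It rests on 128 and 123 reads in Klrg1Cre and on 267 and 172 reads in control.

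Near-identical copies bear on these levels. A search of the coding sequences against 10256 GENCODE processed pseudogene transcripts found at least 1 copy (at least 90% identity over at least 80% of the coding sequence) for 71 of 77 canonical members, with a median of 8 copies and 76 for Rpl21. How reads that match several places had been assigned is not given in the sources used here. Some pseudogene rows held more reads than their parent: Rps15a-ps4 had deposited means of 55.8 and 66.4 CPM against 18.1 and 17.8 CPM for Rps15a, and Rplp2-ps1 31.2 and 26.7 CPM against 19.2 and 19.7 CPM for Rplp2. Rpl31-ps12 had deposited means of 17.2 and 16.6 CPM, above Rpl31 at 9.97 and 9.39 CPM. Levels of single members are therefore uncertain where copies exist. Rpl8, Rps3, Rps19, Rpl41 and Rplp2 were among the canonical members with no copy by this search. The table nevertheless lists the row Rplp2-ps1, and also Rps19-ps3 at deposited means of 5.31 and 5.19 CPM, so the search did not find every copy.

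Although nearly all of these proteins are built into ribosomes in equal numbers, their mRNA levels per coding length were far apart. Divided by coding length, the mean over both genotypes was highest for Rpl41 at 2180 CPM per coding kilobase and lowest for Rpl21 at 18.8, with a median of 133.8 over the 77 canonical members. The quartiles were 78.0 and 189.1 CPM per coding kilobase. Rplp0 followed Rpl41 at 639.7, and Rpl8 at 373.3 and Rpl37 at 366.3 were also high, in CPM per coding kilobase. The low end held Rpl21, Rpl12 at 21.1, Rps12 at 22.4, Rpl7a at 22.7 and Rpl30 at 23.8 CPM per coding kilobase. Reads also come from untranslated parts, so dividing by coding length raises values where these make up much of the transcript. Rpl41 has 138 coding bases in a transcript of 509, and Rpl37 has 291 in one of 835. The part of this in the spread and in the order of genes was not tested. Rpl21 and Rpl7a have the most pseudogene copies, 76 and 74. Across 82 members the number of copies and the log2 level per coding kilobase had a Spearman correlation of -0.13 and a Pearson correlation of -0.28. Both are given as a description, and the part of copies in these levels was not tested.

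Of the 85 members, 44 could be split into libraries in both genotypes, 27 of the large and 17 of the small subunit. Both Klrg1Cre libraries were above both control libraries for 10 of the 44 genes, where 19.3% of all 5351 split genes were, and below for 6, where 18.3% were. Among the 10 were Rpl4, Rpl7l1, Rpl8, Rpl23a, Rpl28, Rps3, Rps4l, Rps6 and Rpsa, and among the 6 were Rpl11, Rpl23, Rpl27, Rpl27a and Rps16. Together the 16 made up 36.4% of the split members, close to the 37.6% of all split genes.

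Single libraries of the same genotype differed more than the genotype means did, and the members shared a direction. In Klrg1Cre, 37 of the 44 genes (84.1%) were higher in the smaller library, with a median log2 difference of 0.14. In control, 40 of 44 (90.9%) were higher in the smaller library, with a median of 0.11. The median size of the difference, regardless of sign, was 0.17 within Klrg1Cre and 0.12 within control, against 0.09 between the genotype means, which average over libraries. Counting error accounts for a typical log2 error of 0.059 in Klrg1Cre and 0.046 in control, and 29 and 30 of the 44 differences were more than 2 such errors. Summed over the 44 genes, the larger and smaller library held 3711 and 4130 CPM for Klrg1Cre against 3649 and 3897 CPM for control.

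**Figure D2:**
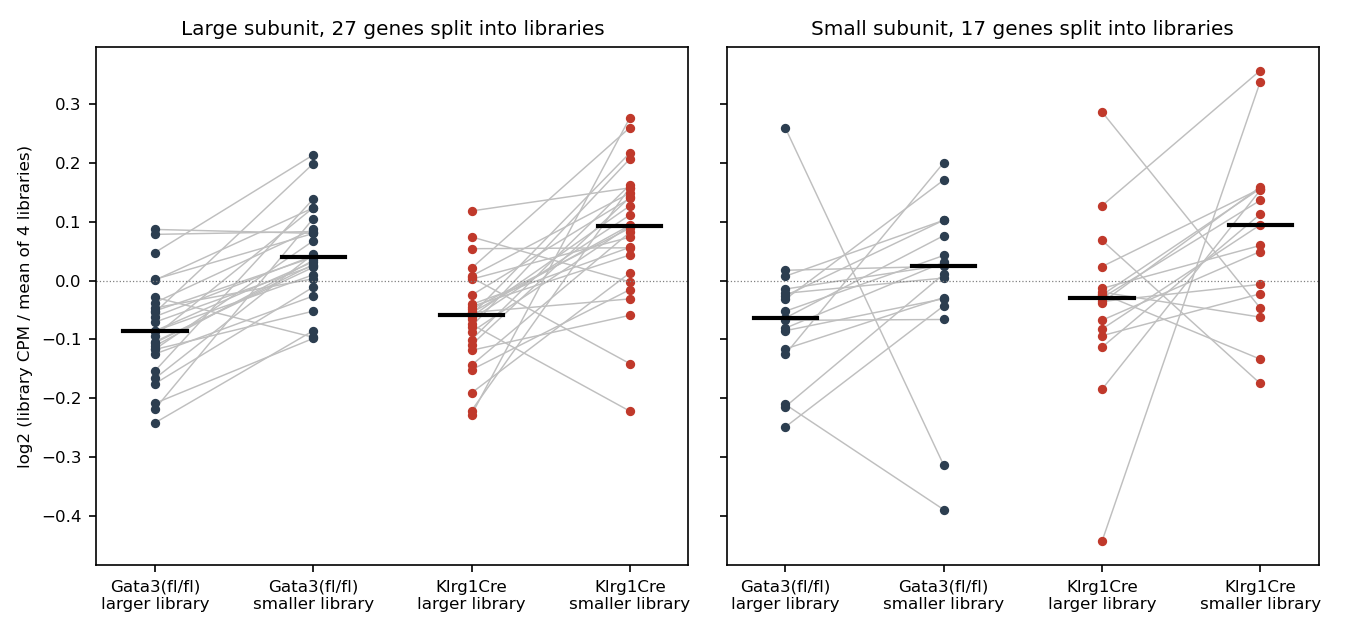
Level of each of the 44 split genes in each library, as the log2 of its CPM over its mean of 4 libraries, with lines joining the 2 libraries of a genotype and black bars for the median. In both subunits the medians are higher in the smaller library of each genotype.

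The same direction was less frequent in other genes. Over the 2688 split genes whose mean reached 5 CPM, 52.1% were higher in the smaller Klrg1Cre library and 48.9% in the smaller control library, and 26.8% in both. Of the 43 members above that level, 33 (76.7%) were higher in both. Among 1314 other genes with coding lengths in the range of the members, 33.9% were higher in both. Mitochondrial ribosomal proteins, encoded by separate genes, were higher in both for 13 of 35 genes, and TOP mRNAs other than the members for 4 of 14. Ribosome biogenesis genes were higher in the smaller Klrg1Cre library for 30 of 38 genes, with a median log2 difference of 0.22, but for 19 of 38 in control. These shares are descriptions with no test, and genes of 1 library are not independent.

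**Figure D3:**
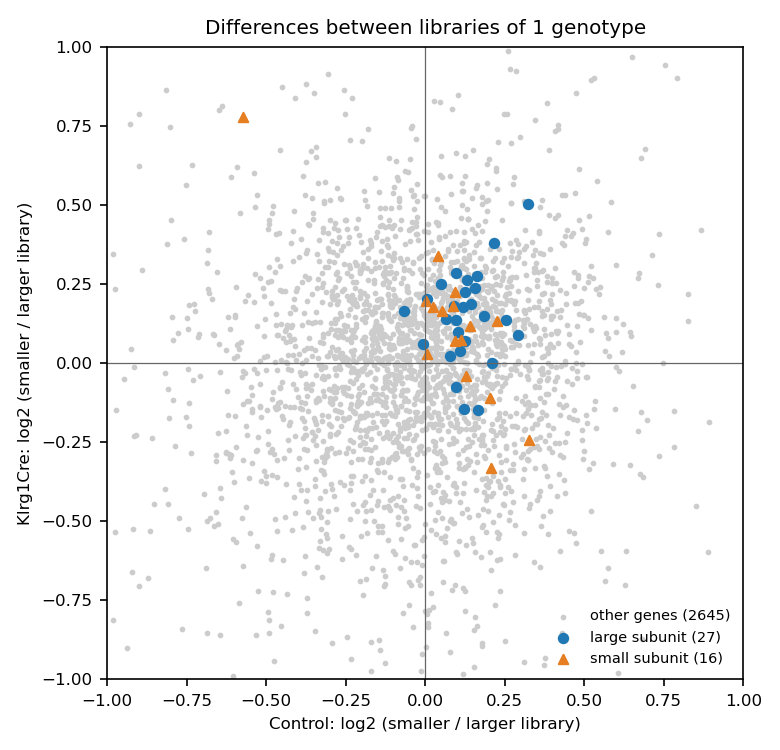
Log2 difference of the smaller over the larger library in control (horizontal) and in Klrg1Cre (vertical) for genes whose mean reached 5 CPM. Members of both subunits gather at the upper right, with 33 of 43 above 0 on both axes, while 2645 other genes (grey, 65 of them outside the axes) lie around 0.

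Between genotypes, members with longer coding sequences tended to have the higher ratios. Of the 24 members with a coding length over 600 bases, 21 had a higher deposited mean in Klrg1Cre. All 4 members over 900 bases (Rplp0, Rpl3, Rpl4 and Rps2) were higher, with a median log2 ratio of 0.17, and so were 17 of the 20 members of 600 to 900 bases, with a median of 0.08. Of the 9 members of up to 300 bases, 6 were lower, with a median of -0.10, and Rpl41 had the highest ratio of the 9 at 0.18. The Spearman correlation of log2 ratio and coding length was 0.42 across 82 members, 0.39 for the large and 0.43 for the small subunit, against 0.04 across the 6174 genes whose mean reached 5 CPM. With transcript length in place of coding length it was 0.22 across the same 82 members. These are given with no p, since all points share the same libraries. In the 43 split members with a coding length, the correlation with that length was 0.27, and between 0.16 and 0.30 for the 4 pairs of a Klrg1Cre and a control library. Within a genotype it was 0.17 for the smaller over the larger Klrg1Cre library and -0.18 for the control libraries. Over all 2657 split genes of that level with a coding length, the difference between the control libraries had a Spearman correlation of -0.33 with coding length, and that between the Klrg1Cre libraries one of -0.07. The ratio between genotypes also went with GC content, with a Spearman correlation of 0.35 across the members and 0.28 across the 6174 genes. The part of GC content and library make-up in the pattern was not tested.

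**Figure D4:**
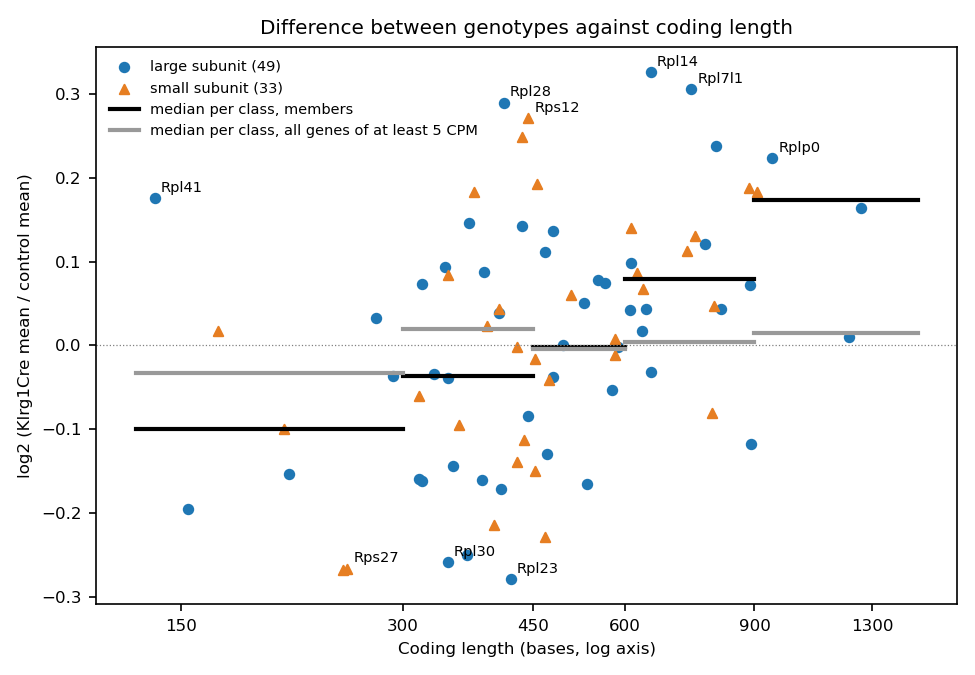
Log2 ratio of the deposited means (Klrg1Cre over control) against coding length in bases (log axis) for 49 large and 33 small subunit genes, with bars for the median of each length class. Black bars (members) climb from -0.10 in the shortest to 0.17 in the longest class, while grey bars (all genes of at least 5 CPM) stay between -0.03 and 0.02.

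Genes that make, assemble or control ribosomes were read from 5 lists. By the p-values of the authors' deposited table, 0 members of any of them passed an adjusted p of 0.05. For comparison, 6014 of all 11883 genes had a higher deposited mean in Klrg1Cre. Of the 6300 genes whose mean reached 5 CPM, 3333 did, with a median log2 ratio of 0.02. Of 86 listed ribosome biogenesis genes, 61 had higher and 25 lower deposited means in Klrg1Cre, with a median log2 ratio of 0.07, and 3 (3.49%) had an unadjusted p below 0.05, a smaller share than the 7.09% of all genes. These were Lsg1, a GTPase of late large subunit maturation, at deposited means of 10.9 against 7.69 CPM, Spata5, another factor of large subunit maturation, at 7.09 against 4.70 CPM, and Nol10, a nucleolar protein, at 2.22 against 3.96 CPM. Of 37 genes for RNA polymerases I and III and their factors, 23 had higher deposited means, with a median log2 ratio of 0.14. An unadjusted p below 0.05 in the authors' model was listed for 1 of the 37 (2.70%). Of 25 other TOP mRNAs, 16 had higher deposited means with a median of 0.04, and 1 (4%) had an unadjusted p below 0.05 in the authors' model. Vim, encoding vimentin, had the smallest p of them at deposited means of 711.9 against 556.5 CPM (adjusted p = 0.635 in the authors' model).

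The list of mTORC1 and TOP control genes was the one with the largest share at an unadjusted p below 0.05, 4 of 32 (12.5%, where 7.09% of all genes were), while 15 of its genes had higher and 17 lower deposited means in Klrg1Cre, with a median log2 ratio of -0.06. Of the 4 genes, all but Pdcd4 had higher deposited means in Klrg1Cre. Rps6ka1, a kinase of Rps6 downstream of ERK, was listed at deposited means of 108.4 against 83.4 CPM, Eif4ebp1, the translation repressor inactivated by mTORC1, at 20.2 against 14.7 CPM, and Mlst8, an mTOR complex subunit, at 7.96 against 5.10 CPM. Pdcd4, an inhibitor of the helicase that unwinds mRNA for initiation, was lower at 17.8 against 23.1 CPM in the deposited means. Adjusted p for these 4 genes lay between 0.584 and 0.679 in the authors' model. The list from ribosomal stress to p53 shares Rpl5, Rpl11, Rpl26 and Rps27l with the members, and its 8 genes, among them Mdm2, all had an unadjusted p above 0.05 in the authors' deposited table.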

How the data were processed

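RNA-seq of sorted lung Th2 cells was analysed for 4 samples in 2 genotypes. STAR and Partek were used with mouse build mm9, per the submitters' processing notes; versions, annotation and the treatment of reads matching several places are not given in the sources used here. The authors deposited 1 table of their own comparison, with group means in CPM (an offset of 0.0001 CPM added), the ratio of the means, a signed fold change (a score here), p-values and adjusted p-values. The deposited total counts column, a signal, is 2 times the summed means for all 11883 genes and was left aside. Recomputing the adjusted values from the deposited p-values by Benjamini-Hochberg gave the same numbers for all 11883 genes. No test was run on the means, because they hold no spread, and the planned count test (edgeR) was not run, since whole reads could be recovered for only part of the genes.

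Means were split into whole reads of 2 libraries (within 1e-09 reads, means under 20000 CPM) for 5351 genes (45.0%), a step tested on simulated data. Counting errors given cover read sampling only. As an alternative, limma 3.58.1 (R 4.3.3, trended variance) was run on log2(CPM + 1) of the 4242 split genes of at least 1 CPM. Coding lengths, of the longest coding sequence in GENCODE M21 (GRCm38), matched 11264 genes by symbol, and 82 of 85 members; copies were found with blastn 2.17.0. Promoters came from RefSeq by symbol, 1 per gene, the first listed; no coordinates are given on mm9. Named were the 5 members of each subunit with the highest means, the 5 with the smallest p, the 3 highest and lowest ratios at 5 CPM or more, the stalk, Rpsa, Rps6, Rpl5, Rpl11, ubiquitin fusions and paralogs. Members and lists were chosen with earlier results of these data known. Other settings tried were pseudocounts, filters, scalings, canonical genes only and leaving out each library. A few genes that these rules name are not reported here.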

Additional observations from a re-analysis of the deposited data

How the results depend on the processing

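No paired analysis was possible because the deposited columns are group means and carry no replicate number, so the planned replicate block was not run. The count of large subunit genes called was 0 in the authors' deposited table, and also 0 at an adjusted p below 0.1, over genes of at least 1 CPM and by limma on split genes; at an unadjusted p below 0.05 it was 1. The count for the small subunit was 0 in each of these settings. The median log2 ratio ranged from -0.04 to 0.11 over 12 alternatives for the large subunit and from -0.0563 to 0.10 for the small subunit, with all ends set by leaving out 1 Klrg1Cre library. Without the larger Klrg1Cre library the medians of split members were 0.11 and 0.10, and without the smaller one -0.04 and -0.0563, so the sign of the median depends on which Klrg1Cre library is kept; it was also below 0 without the larger control library. The setting with split members and both libraries (0.04 and 0.0080) was chosen after seeing the data. Scaling to listed genes without Rn45s gave 0.0068 and -0.0057. Depth limits chiefly the members of lowest level, Rpl32l at a mean of 1.93 CPM and Rps4l at 2.25 CPM; for the 41 members that could not be split no spread between libraries can be given.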

Other observations

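The Rps6k kinase genes, which the symbol rule leaves out, held 9 rows of the table. Rps6ka1, also on the mTORC1 list above, had deposited means of 108.4 against 83.4 CPM. It was the 1 kinase of these 9 with an unadjusted p below 0.05 in the authors' deposited table (adjusted p = 0.584). Of all genes, 7.09% had an unadjusted p below 0.05 there. Rps6kb1, the S6 kinase activated by mTORC1, had deposited means of 10.1 against 12.6 CPM, and its relative Rps6kb2 had 12.3 against 10.1 CPM. Members with a pyrimidine run of at least 8 bases within 25 bases of the annotated start had a median log2 ratio of 0.03 over 30 genes. Those without had -0.00058 over 34 genes, both from the authors' deposited means and given without a test.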
